A study of Homo sapiens with 8 samples.

Results

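A-485 alone was compared with the solvent DMSO in LNCaP-FGC cells, a clone of a human prostate carcinoma line that depends on androgen. The comparison took the 4 libraries labelled A485 or DMSO, of the 8 RNA-seq libraries in the series, with 2 libraries in each group. Cells of both groups were of the same line, carried no stated genetic change and were harvested after 24 h, with A-485 in one group and with the solvent in the other. The other 4 libraries, from I-CBP112 alone and from both compounds, entered the statistical model so that the spread between libraries rested on more samples. The doses are not stated in the labels. Nothing in them says whether the libraries of a group came from separate cultures, so p-values measure the spread between these libraries, which may be technical.

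The coactivators p300 (gene EP300) and CBP (gene CREBBP) are acetyltransferases that acetylate histones and transcription factors at enhancers and promoters. A-485 occupies their catalytic site and competes with acetyl-CoA, while I-CBP112 binds their bromodomain, the module that reads acetylated lysine. In prostate cells p300 and CBP are coactivators of hormone-dependent transcription, on which most prostate-specific expression rests.

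The deposited values were FPKM (fragments per kilobase of transcript, scaled to the normalizing fragments of the library) for 81591 transcripts, here summed to 19431 genes and rescaled between libraries. The A-485 libraries held an estimated 25500000 and 4810000 fragments on these transcripts, against 18900000 and 4190000 in the DMSO libraries. In both groups the second library was the shallower, and only 29.2% (A-485) and 19.4% (DMSO) of its normalizing fragments fell on the table, against 78.8% (A-485) and 85.4% (DMSO) in the first. All 7 luminal epithelial markers were measured, among them KRT8 at 844 and 526 scaled FPKM with A-485 and 1210 and 759 with DMSO. TP63 (basal), PTPRC, CD3E and HBB (blood), and CHGA (neuroendocrine) were listed at 0 in all 4 libraries. Exceptions to the luminal pattern were small. KRT5, a basal keratin, reached 6.68 scaled FPKM in DMSO replicate 2 and at most 0.256 in the other 3. KRT14, also basal, stayed at or below 0.827. SYP, a neuroendocrine marker, was at 2.77 and 1.96 with A-485 and at 1.48 and 1.58 with DMSO, and was not called. Of the markers of other cell types, COL1A1 and VWF were called higher, and the part of such cells was not tested. The collagen gene COL1A1 was at 9.29 and 9.90 with A-485 and at 3.44 and 3.51 with DMSO, while COL1A2, DCN and LUM, other stromal markers, stayed at or below 0.412. VWF, an endothelial marker, was at 7.80 and 4.68 with A-485 and at 3.34 and 2.45 with DMSO. Fewer cells of a type and less RNA per cell cannot be told apart in such bulk samples.

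Of 11874 genes tested, 1613 (13.6%) differed between A-485 and DMSO at an adjusted p under 0.05 (limma on log2(scaled FPKM + 1) with the replicate number as a block, Benjamini-Hochberg). A-485 lowered 1078 genes (9.08%) and raised 535 (4.51%). Changes of at least 2-fold were made by 351 of the lower and 195 of the higher genes, and of at least 4-fold by 32 of the lower and 7 of the higher. The 2 directions differed in level. The median scaled FPKM was 8.63 for the higher genes, 40.7 for the lower genes and 14.0 for all genes tested. Without the block the same test called 526 genes (4.43%), 376 lower and 150 higher, and each of these was also among the 1613. All directions here are relative to the median gene. With each library brought only to the same total, the median gene stood 0.31 higher (log2) with A-485 and the split turned to 490 lower and 1630 higher. With FPKM as deposited it was 96 lower and 644 higher, with the median gene 0.42 higher.

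The changes in the replicate 1 pair and the replicate 2 pair of libraries correlated over all genes tested (Pearson r = 0.59). In 75.2% of all genes tested the sign was the same in both pairs. All 1613 called genes had the same sign in both, but the fit favours genes whose pairs agree, so this adds no evidence of its own. In 1574 of the 1613, both A-485 libraries lay on one side of both DMSO libraries. The same was true of 52.6% of all genes tested. Leaving out an A-485 library left 13 calls (without replicate 1) or 8 calls (without replicate 2), and the cause of the lost calls was not tested. Without DMSO replicate 1 there were 613 calls and without DMSO replicate 2 there were 2950. Of 238 genes examined singly, 6 were called whichever of the 8 libraries was left out, all of them lower with A-485. They were TRIM49D1, CHAC1, SLC45A3, S100P, BAMBI and HES6.

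**Figure D1:**
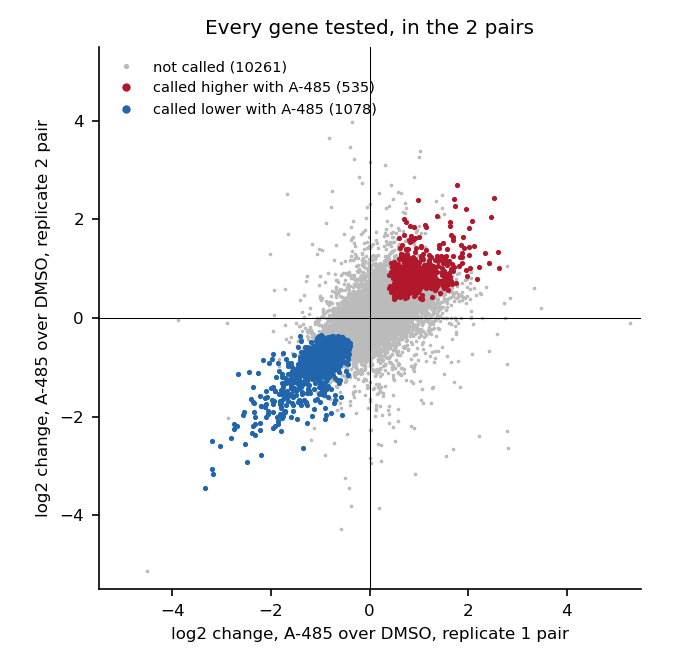
Each point is 1 of 11874 genes, placed by its log2 change with A-485 over DMSO in the replicate 1 pair (horizontal) and in the replicate 2 pair (vertical). The 535 genes called higher lie in the upper right corner and the 1078 called lower in the lower left, and 1 gene that was not called lies outside the axes.

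The genes that fell furthest included prostate genes, genes of amino acid metabolism and secreted or surface proteins. CHAC1, an enzyme that breaks down glutathione, was at 10.4 and 7.35 scaled FPKM with A-485, against 102 and 74.1 with DMSO. Its log2 fold change was -3.17 ± 0.20 (SE, n = 2 per group; limma, adjusted p = 0.00195). SLC45A3, a prostate-restricted membrane transporter also called prostein, was at 18.9 and 14.3 with A-485 and at 181 and 127 with DMSO (-3.13 ± 0.13; limma, adjusted p = 0.00114). For both genes the A-485 libraries lay far below the DMSO libraries and the pairs agreed closely, at -3.18 and -3.17 for CHAC1. S100P, a calcium-binding protein, had 4.45 and 6.46 with A-485 and 37.4 and 39.2 with DMSO (-2.62 ± 0.15). BAMBI, a decoy receptor that dampens TGF-beta signalling, had 3.15 and 5.40 with A-485 and 26.8 and 29.6 with DMSO (-2.50 ± 0.16). ADAMTS1, a secreted protease of the extracellular matrix, had 6.60 and 5.47 with A-485 and 41.8 and 47.7 with DMSO (-2.70 ± 0.24). The limma adjusted p of these 3 genes ran up to 0.00334. In none did the groups overlap, as in 52.6% of all genes tested.

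Others among the 15 largest falls were CHRNA2, a nicotinic receptor subunit (-2.85 ± 0.28), CAPN5, a calpain protease (-2.82 ± 0.19), and PCK2, the mitochondrial phosphoenolpyruvate carboxykinase (-2.28 ± 0.18). PCK2 was among the more abundant of them, at 135 and 106 scaled FPKM with A-485 and 700 and 488 with DMSO. The relaxin gene RLN1 (-2.35 ± 0.15) has a close copy, and TRIM49D1, at 0.152 and 0.107 with A-485 and 10.6 and 11.1 with DMSO, belongs to a family of near-identical genes, so both values are uncertain.

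Genes that rose started from lower levels. TTLL3, a tubulin glycylase whose exons also belong to a readthrough transcript with its neighbour ARPC4, was at 14.9 and 19.1 scaled FPKM with A-485, against 2.76 and 4.15 with DMSO (2.02 ± 0.26; limma, adjusted p = 0.00876). DPP3, a zinc-dependent dipeptidase, was at 25.1 and 33.2 with A-485 and at 5.43 and 8.66 with DMSO (1.92 ± 0.21; adjusted p = 0.00559). TM4SF1, a tetraspan surface protein, was at 10.2 and 14.4 with A-485 and at 2.59 and 2.98 with DMSO (1.80 ± 0.20; adjusted p = 0.00613). In these 3 genes the groups were well apart. IFT80 (1.67 ± 0.28) and DYNC2LI1 (1.67 ± 0.21), which work in intraflagellar transport, also rose, as did CUL5, a scaffold of ubiquitin ligases (1.63 ± 0.30), and SERPINI1, which encodes neuroserpin (1.72 ± 0.23). AKAP9, a centrosomal anchoring protein, was called but rested on unlike controls, with 14.4 and 18.9 in A-485 libraries and 1.48 and 8.84 in DMSO libraries (1.83 ± 0.43; limma, adjusted p = 0.0384, and 0.0931 without the replicate block). PILRB, NAIP, AHSA2P and GOLGA8B, 4 of the 15 largest rises, have near-identical copies, pseudogenes or overlapping transcripts, and their values are uncertain.

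**Figure D2:**
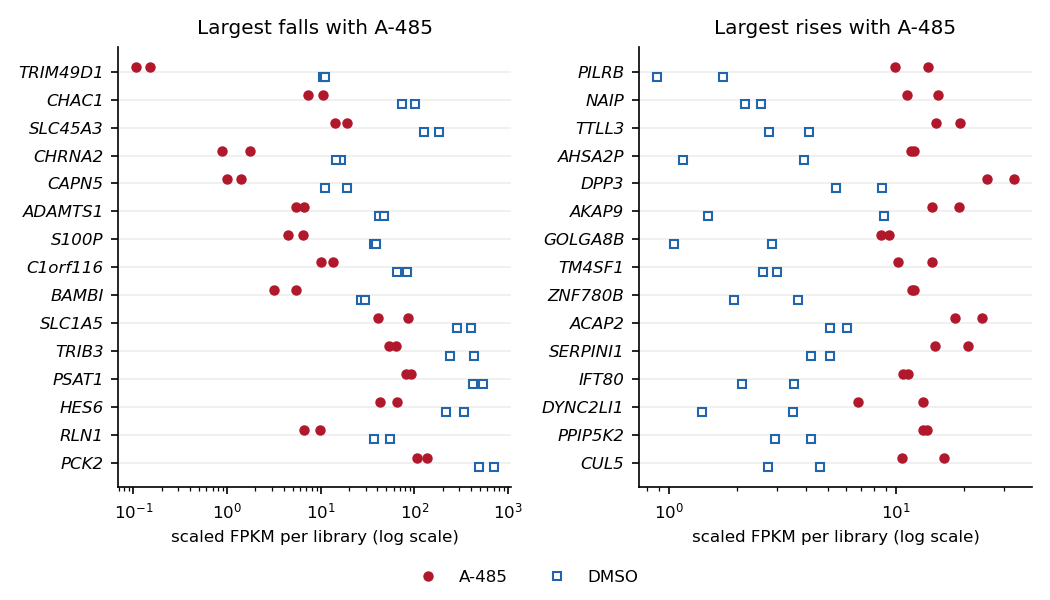
Scaled FPKM (log axis) of the 15 genes with the largest falls (left) and the 15 with the largest rises (right) with A-485, with filled circles for the 2 A-485 libraries and open squares for the 2 DMSO libraries. In each of the 30 genes both circles lie on one side of both squares. These genes were chosen from those called, and the groups also did not overlap in 52.6% of all genes tested.

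Androgen-induced genes were among the lists with most members lower. Of 38 tested members, 18 were called lower and 0 higher, where 9.08% of all genes were called lower, and the median log2 change was -0.72 (-0.75 and -0.71 in the 2 pairs), against 0.01 over all genes. With FPKM as deposited 6 members were called lower, with a median of -0.31. The summed level of the list was 2376 and 2427 scaled FPKM with A-485, against 6380 and 5714 with DMSO. KLK3, which encodes prostate-specific antigen, was at 572 and 628 with A-485 and at 2244 and 1995 with DMSO (-1.82 ± 0.13; limma, adjusted p = 0.00253). KLK2, a related secreted protease, was at 108 and 110 with A-485 and at 548 and 366 with DMSO (-2.03 ± 0.26; adjusted p = 0.00909). For both kallikreins the A-485 libraries were close to each other and far below the controls. TRPM8, a cold-sensing ion channel, was at 0.147 and 0.302 with A-485 and at 4.71 and 4.22 with DMSO (-2.16 ± 0.21). C1orf116, known as a specifically androgen-regulated gene, fell by 2.55 ± 0.19. TMPRSS2, a surface protease gene often fused to ERG in prostate cancer, was at 75.7 and 65.8 with A-485 and at 188 and 166 with DMSO (-1.31 ± 0.13). Falls in KLK4 (-0.70 ± 0.15), FKBP5, a co-chaperone of steroid receptors (-0.99 ± 0.16), and FOLH1, which encodes prostate-specific membrane antigen (-0.80 ± 0.13), were smaller. Without the block 16 members were lower, with the same total per library 14, and without A-485 replicate 1 or replicate 2, 3 or 2.

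Among the transcription factors of the prostate lineage some were called lower and others were not called. HES6, a transcriptional regulator of the HES family, was at 64.3 and 42.7 scaled FPKM with A-485 and at 339 and 219 with DMSO (-2.36 ± 0.12; limma, adjusted p = 0.00159). SPDEF, a factor of secretory epithelium, was at 45.1 and 37.5 with A-485 and at 130 and 93.1 with DMSO (-1.40 ± 0.12), and XBP1, which serves secretory capacity, was at 99.2 and 89.7 with A-485 and at 312 and 220 with DMSO (-1.46 ± 0.17). In these 3 genes each A-485 library was below each DMSO library. The groups also did not overlap in 52.6% of all genes tested. FOXA1, HOXB13, GATA2 and GRHL2, other factors of the list, were not called. The log2 change was -0.39 ± 0.13 for FOXA1, -0.16 ± 0.14 for HOXB13, -0.13 ± 0.12 for GATA2 and -0.16 ± 0.13 for GRHL2 (limma, adjusted p from 0.0826 to 0.475). In all, 8 of 20 tested members were lower and 0 higher, where 9.08% of all genes were lower, and 15 of 20 were below 0. The median of -0.32 moved to 0.01 with the same total per library. The difference between factors called and not called was not tested. Without A-485 replicate 1 or 2, 2 members were called in each case. The coactivators and corepressors of nuclear receptors gave 2 of 19 lower and 0 higher, a share near the 9.08% of all genes, with 13 of 19 above 0, a median of 0.28 (0.56 with the same total per library) and 0 calls without the block.

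The stress regulators of the ATF4 branch showed the lowest median of the 45 lists examined. ATF4 is the main transcription factor downstream of the integrated stress response. It is made when amino acids run short or proteins misfold, and switches on genes for amino acid synthesis, uptake and tRNA charging. Of 25 tested members, 16 were lower and 0 higher, where 9.08% of all genes were lower. Their median log2 change was -1.22 (-1.37 and -1.08 in the pairs). With FPKM as deposited 6 were lower, with a median of -0.86. Without the replicate block 14 were lower, with the same total per library 14, and without A-485 replicate 1 or replicate 2, 1 in each case.

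ATF4 itself was at 310 and 394 scaled FPKM with A-485, against 1067 and 867 with DMSO (-1.46 ± 0.19; limma, adjusted p = 0.00917). DDIT3, which encodes the stress factor CHOP, was at 23.6 and 37.2 with A-485 and at 113 and 131 with DMSO (-1.998 ± 0.17; adjusted p = 0.00299). TRIB3, a pseudokinase that restrains ATF4 and AKT, was at 62.8 and 53.2 with A-485 and at 427 and 241 with DMSO (-2.45 ± 0.18; adjusted p = 0.00253). In all 3 genes each A-485 library was lower than each DMSO library. The groups also did not overlap in 52.6% of all genes tested. ATF3, a partner factor, was at 20.3 and 21.7 with A-485 and at 109 and 73.1 with DMSO (-2.04 ± 0.20). Similar falls came in STC2, a secreted glycoprotein (-2.25 ± 0.24), CEBPB, a dimer partner of ATF4 (-1.68 ± 0.16), and DDIT4, an inhibitor of mTOR signalling (-1.57 ± 0.12). Not called were EIF2AK3, the kinase PERK that starts this response in the endoplasmic reticulum (5.03 and 4.55 with A-485, 6.18 and 6.44 with DMSO; -0.34 ± 0.19, adjusted p = 0.238), PPP1R15A, which ends it (-0.38 ± 0.24, adjusted p = 0.31), and ATF5 (-0.48 ± 0.13, adjusted p = 0.0569).

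Enzymes of serine, asparagine, proline and one-carbon metabolism were lower in 18 of 30 tested members, with 0 higher (median -0.64). Over all genes 9.08% were lower. With the same total per library 13 members were lower (median -0.31), and with FPKM as deposited 4 (median -0.19). PSAT1, the aminotransferase of serine synthesis, was at 81.4 and 92.1 scaled FPKM with A-485 and at 534 and 425 with DMSO (-2.45 ± 0.18; limma, adjusted p = 0.00253). ASNS, asparagine synthetase, was at 111.9 and 120 with A-485 and at 667 and 473 with DMSO (-2.27 ± 0.22; adjusted p = 0.00401). Both fell about alike in the pairs, at -2.57 and -1.97 for ASNS. PHGDH, the first enzyme of serine synthesis, was at 462 and 380 with A-485 and at 1402 and 982 with DMSO (-1.48 ± 0.17). MTHFD2 and MTHFD1L, mitochondrial folate enzymes, changed by -2.22 ± 0.23 and -1.69 ± 0.30, and CTH, which makes cysteine, by -1.81 ± 0.21. TYMS, thymidylate synthase, was at 84.3 and 113 with A-485 and 109 and 103 with DMSO and was not called (adjusted p = 0.648). Without the block 11 members were lower, and without either A-485 replicate 0.

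Amino acid transporters were lower in 12 of 21 tested members and higher in 0 (median -0.89), where 9.08% of all genes were lower. With the same total per library 8 members were lower (median -0.57), and with FPKM as deposited 3 (median -0.42). SLC1A5, the glutamine carrier, was at 85.4 and 40.6 scaled FPKM with A-485 and at 398 and 286 with DMSO (-2.50 ± 0.27; limma, adjusted p = 0.00522). SLC6A9, a glycine carrier, was at 10.1 and 8.23 with A-485 and at 46.6 and 36.3 with DMSO (-2.06 ± 0.21). SLC3A2, the shared heavy chain of several exchangers, fell by 1.62 ± 0.15, and its light chains SLC7A5, for large neutral amino acids, and SLC7A11, for cystine, by 1.40 ± 0.21 and 1.39 ± 0.23. SLC43A1, another carrier of large neutral amino acids, fell by 1.90 ± 0.19. Without the block 10 members were lower, and without A-485 replicate 1 or replicate 2, 1 or 0.

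The synthetases that charge tRNA differed by compartment in their counts. In the cytosolic list 13 of 24 tested members were lower and 0 higher (median -0.64), and in the mitochondrial list 2 of 17 were lower and 0 higher (median -0.14). With the same total per library the cytosolic list had 11 lower and 1 higher (median -0.30) and the mitochondrial list 0 lower and 1 higher (median 0.18), and with FPKM as deposited neither had a call. Over all genes tested 9.08% were lower, near the mitochondrial share. The median level was 99.9 scaled FPKM in the cytosolic list and 17.5 in the mitochondrial list. Of all genes above 51.8 scaled FPKM 19.9% were lower, and of those from 9.5 to 20.8, 7.33%. The difference between the lists was not tested, nor was the part of level in it. GARS, for glycine, was at 72.0 and 86.1 scaled FPKM with A-485 and at 277 and 242 with DMSO (-1.70 ± 0.16; limma, adjusted p = 0.00362). GARS serves both compartments. MARS, for methionine in the cytosol, was at 114 and 116.5 with A-485 and at 366 and 355 with DMSO (-1.64 ± 0.16), while MARS2, its mitochondrial counterpart, was at 8.64 and 7.22 with A-485 and at 18.0 and 12.8 with DMSO (-0.87 ± 0.16). YARS, WARS, SARS and AARS fell by 1.39 to 1.58 and QARS, for glutamine, was not called (-0.39 ± 0.15, adjusted p = 0.125). Without the block the counts were 10 and 0, and without either A-485 replicate 0 in both lists.

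**Figure D3:**
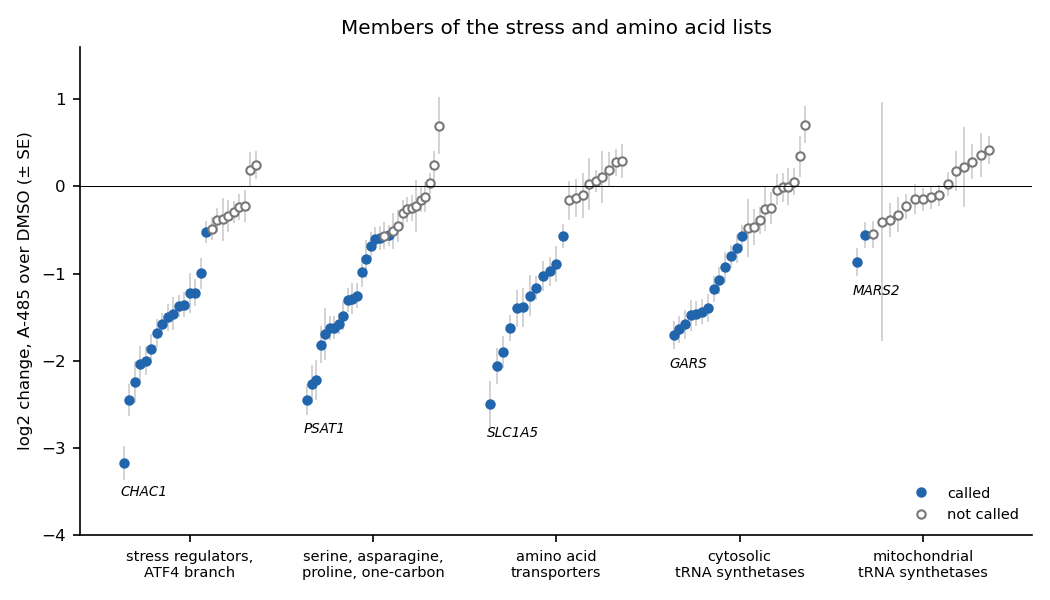
Each point is the log2 change of 1 gene with A-485 over DMSO, with its SE as a bar, for the tested members of 5 lists sorted within each list (filled where called, open where not). Called members number 16 of 25, 18 of 30, 12 of 21, 13 of 24 and 2 of 17, all below 0, and the lowest is CHAC1. Of all genes tested, 9.08% were called lower.

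The start regions of these genes were searched for the element that ATF4 and C/EBP proteins bind together, TGATGNAA on either strand, where N is any base. A region ran from 250 bases before to 50 bases after the annotated start (RefSeq, GRCh38.p14), and 9359 of the 11874 genes tested had one in the table used. The element was in 3.67% of all 27305 regions and 1.52% of those of the genes tested. It was in 31 of 825 regions (3.76%) of genes called lower and in 3 of 431 (0.696%) of genes called higher. Among called members it was in 3 of 14 stress regulators, 3 of 11 serine and one-carbon enzymes, 3 of 10 transporters and 0 of 2 cytosolic synthetases. Among tested members that were not called it was in 1 of 7 stress regulators, 0 of 9 enzymes, 0 of 9 transporters and 0 of 3 cytosolic synthetases. A match is a description of these letters and not a bound site. The regions of 4 strongly lowered genes that hold it are shown, 5′ to 3′ on the gene's strand, with the element in capitals. CHAC1 lies at chr15:40953221-40953520 (plus strand), and its element, in reverse, starts 209 bases before the gene. ASNS lies at chr7:97872359-97872658 (minus strand), with the element starting 68 bases before the gene. ATF3 lies at chr1:212565157-212565456 (plus strand, 191 bases before) and MTHFD1L at chr6:150866236-150866535 (plus strand, 129 bases before).
CHAC1: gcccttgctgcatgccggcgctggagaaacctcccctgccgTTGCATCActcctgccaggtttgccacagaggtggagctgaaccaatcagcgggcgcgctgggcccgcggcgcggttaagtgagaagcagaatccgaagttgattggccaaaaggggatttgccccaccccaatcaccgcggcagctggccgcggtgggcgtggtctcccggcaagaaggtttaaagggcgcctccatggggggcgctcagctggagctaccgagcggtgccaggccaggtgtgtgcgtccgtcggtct
ASNS: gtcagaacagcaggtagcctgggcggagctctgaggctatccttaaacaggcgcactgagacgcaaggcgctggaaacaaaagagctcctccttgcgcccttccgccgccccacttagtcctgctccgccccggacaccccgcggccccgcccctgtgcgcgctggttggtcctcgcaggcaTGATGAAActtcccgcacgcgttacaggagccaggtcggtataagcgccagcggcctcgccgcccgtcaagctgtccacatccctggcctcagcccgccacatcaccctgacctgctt
ATF3: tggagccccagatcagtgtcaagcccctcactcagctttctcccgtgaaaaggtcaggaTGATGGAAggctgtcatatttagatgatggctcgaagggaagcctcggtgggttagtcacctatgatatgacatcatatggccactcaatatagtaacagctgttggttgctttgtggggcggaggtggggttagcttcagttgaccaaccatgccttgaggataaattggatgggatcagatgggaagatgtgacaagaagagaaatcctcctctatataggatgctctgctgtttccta
MTHFD1L: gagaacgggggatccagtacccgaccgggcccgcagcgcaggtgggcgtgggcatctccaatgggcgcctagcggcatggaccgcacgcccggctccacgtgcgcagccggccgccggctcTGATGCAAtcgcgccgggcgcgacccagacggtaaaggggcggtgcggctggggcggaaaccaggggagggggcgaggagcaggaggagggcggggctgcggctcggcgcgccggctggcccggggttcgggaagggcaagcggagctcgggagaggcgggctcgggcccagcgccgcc

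In the endoplasmic reticulum list, 22 of 50 tested genes for folding and degradation were lower and 1 higher (median -0.54, and 12 lower with the same total per library). HSPA5, the main chaperone of that compartment, was at 111.7 and 118 scaled FPKM with A-485 and at 242 and 234 with DMSO (-1.04 ± 0.13; limma, adjusted p = 0.00872). HERPUD1, which serves degradation of misfolded proteins, was at 86.0 and 84.8 with A-485 and at 271 and 276 with DMSO (-1.67 ± 0.15). ERN1, the sensor IRE1, fell by 1.21 ± 0.16. The chaperone HSP90B1 was not called, at 208 and 244 with A-485 and 202 and 318 with DMSO (adjusted p = 0.516). The 1 member that rose was ERO1B, an oxidase for disulfide bonds, at 6.02 and 5.44 with A-485 and 2.92 and 2.94 with DMSO (0.78 ± 0.17). Of 40 genes for vesicle coats and Golgi carriers, 5 were lower and 0 higher, where 9.08% of all genes were lower. SEC24D, a cargo adaptor of COPII vesicles, had the largest fall (-1.52 ± 0.19), and the median of -0.23 turned to 0.11 with the same total per library. Cytosolic heat shock proteins went both ways, with 5 of 29 lower and 2 higher, and 1 lower and 9 higher with the same total per library. HSP90AA1 rose, at 410 and 543 with A-485 and 163 and 367 with DMSO (0.95 ± 0.23), as did HSPH1 (0.91 ± 0.14), while the mitochondrial chaperonin HSPD1 fell by 0.82 ± 0.12. Without the block, 10 endoplasmic reticulum genes, 1 of the vesicle list and 0 heat shock genes were called, and without either A-485 replicate 0.

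Genes of growth and of the translation machinery were lower to a smaller degree. MYC was at 61.4 and 51.8 scaled FPKM with A-485 and at 243 and 197 with DMSO (-1.94 ± 0.13; limma, adjusted p = 0.00253), and it was the only 1 of 12 tested members of its network that was called. MAX, its dimer partner, was at 49.3 and 48.0 with A-485 and 73.0 and 46.1 with DMSO (adjusted p = 0.382). Nucleolar genes of ribosome assembly were lower in 21 of 62 and higher in 0, where 9.08% of all genes were lower. Their median was -0.41 (-0.09 with the same total per library and 0.04 with FPKM as deposited), and 8 were lower without the block. DKC1, which carries out pseudouridylation of rRNA, was at 40.1 and 40.7 with A-485 and at 86.7 and 82.4 with DMSO (-1.05 ± 0.12), and NOLC1, its nucleolar chaperone, and PES1, needed for the large subunit, fell by 1.01 ± 0.11 and 1.02 ± 0.15. None of MYC, DKC1, NOLC1 and PES1 was among the named genes called whichever of the 8 libraries was left out. The abundant nucleolar proteins NCL and NPM1 were not called (-0.27 ± 0.16 and -0.13 ± 0.17; limma, adjusted p = 0.264 and 0.613). The nucleolar list had the E-box CACGTG, the letters bound by MYC with MAX, in 8 of 17 start regions of called members, in 12 of 36 of members not called and in 10.4% of all genes tested (7.43% of all regions). The region of PES1 (chr22:30591861-30592160, minus strand, GRCh38.p14, RefSeq) is shown because its E-box, in capitals, starts 13 bases after the gene's start.
PES1: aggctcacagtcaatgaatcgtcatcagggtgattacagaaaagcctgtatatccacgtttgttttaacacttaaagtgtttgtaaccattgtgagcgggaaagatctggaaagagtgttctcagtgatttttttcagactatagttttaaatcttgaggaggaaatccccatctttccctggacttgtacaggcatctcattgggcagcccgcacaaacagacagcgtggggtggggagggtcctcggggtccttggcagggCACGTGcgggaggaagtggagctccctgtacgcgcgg

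Cytosolic ribosomal proteins were lower in 27 of 78 tested genes and higher in 0 (median -0.56), where 9.08% of all genes were lower. Among all genes above 51.8 scaled FPKM, 19.9% were lower. Ribosomal protein genes made up the 10 largest falls in scaled FPKM itself. Together they took 25.0% and 30.1% of the summed level of A-485 libraries, against 30.1% and 34.3% of DMSO libraries, so that A-485 replicate 2 lay level with DMSO replicate 1. RPLP0, of the ribosomal stalk, was at 5740 and 5845 with A-485 and at 12278 and 8708 with DMSO (-0.84 ± 0.18; limma, adjusted p = 0.030). RPS29 was at 4971 and 5979 with A-485 and at 9538 and 10218 with DMSO (-0.86 ± 0.15). The count was 0 without the replicate block, without DMSO replicate 1 and without either A-485 replicate, 52 without DMSO replicate 2, 8 with the same total per library and 15 after correction for transcript length and GC content. Ribosomal protein genes also have many processed copies in the genome, which makes their levels uncertain. Translation factors were lower in 15 of 46 and higher in 0 (median -0.41, and 0.07 with FPKM as deposited). EIF4EBP1, a brake on cap-dependent initiation, was at 116.3 and 94.2 with A-485 and at 491 and 366 with DMSO (-2.01 ± 0.16), and EIF5A, the hypusinated elongation factor, at 504 and 366 with A-485 and 1091 and 713 with DMSO (-1.04 ± 0.15). Without the block 2 translation factors were called. Neither EIF4EBP1 nor EIF5A was among the named genes called whichever of the 8 libraries was left out.

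Several other metabolic lists also had members called lower. ARG2, mitochondrial arginase, was at 33.1 and 41.6 scaled FPKM with A-485 and at 113 and 124 with DMSO (-1.64 ± 0.14; limma, adjusted p = 0.0031), and ODC1, which starts polyamine synthesis, at 131 and 145 with A-485 and 419 and 285 with DMSO (-1.32 ± 0.21). Polyamine genes were lower in 5 of 23, and purine and pyrimidine genes in 13 of 31, led by the nucleoside diphosphate kinase NME1 (-1.45 ± 0.21), which overlaps a readthrough transcript with NME2. Neither list had a member called higher. Cholesterol genes were lower in 6 of 31 and higher in 1. INSIG1, which retains the sterol sensor, was at 19.8 and 15.4 with A-485 and at 40.4 and 32.0 with DMSO (-1.003 ± 0.13), while its relative INSIG2 rose by 0.67 ± 0.15. In fatty acid metabolism, 6 of 34 were lower and 2 higher. ELOVL7, a fatty acid elongase, was at 2.28 and 3.58 with A-485 and at 16.3 and 13.3 with DMSO (-2.02 ± 0.23), while AMACR, a racemase of branched fatty acids, was at 55.4 and 62.3 with A-485 and 27.3 and 30.8 with DMSO (0.99 ± 0.16). Glycolysis (5 of 39), oxidative phosphorylation (5 of 48) and mitochondrial ribosomal protein genes (16 of 73) were lower with 0 higher. The lowest log2 change was -0.84 in oxidative phosphorylation and -0.99 in mitochondrial ribosomal proteins, both under 2-fold. The shares lower in glycolysis and in oxidative phosphorylation were near the 9.08% of all genes. With the same total per library, glycolysis had 3 higher and 2 lower. With the same total per library the medians of the polyamine, cholesterol, fatty acid and oxidative phosphorylation lists turned from below to above 0, at 0.03, 0.05, 0.06 and 0.01. MT3, a metallothionein, was at 4.55 and 6.84 with A-485 and at 0 and 0.894 with DMSO (adjusted p = 0.00362), while MT1G fell by 0.91 ± 0.20. Without the block the lower counts were 3 for polyamine, 3 for purine and pyrimidine, 2 for cholesterol, 2 for fatty acid, 2 for glycolysis, 0 for oxidative phosphorylation and 2 for mitochondrial ribosomal protein genes, and without either A-485 replicate all were 0.

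Replication genes were lower in 13 of 51 and higher in 1 (median -0.42), where 9.08% of all genes were lower and 4.51% higher. Without the block 1 was lower, and with the same total per library 3 were lower and 2 higher (median -0.09). MCM2, of the replicative helicase, was at 34.5 and 27.9 scaled FPKM with A-485 and at 72.7 and 44.4 with DMSO (-0.85 ± 0.15; limma, adjusted p = 0.0209), and MCM4, MCM5 and MCM7 fell by 0.81 to 0.83. The clamp gene PCNA was not called (-0.24 ± 0.15, adjusted p = 0.285). Mitosis genes gave 2 of 46 lower and 2 higher, both shares below those of all genes. Their median was 0.06, and 1 was lower without the block. The difference between these lists was not tested. CKS1B fell by 0.99 ± 0.18 and HMMR rose by 1.53 ± 0.38, at 20.5 and 32.1 with A-485 and 5.04 and 13.1 with DMSO. CDK1 (0.60 ± 0.22, adjusted p = 0.106) and MKI67 (0.49 ± 0.24, adjusted p = 0.189) were not called. Among G1 regulators CCND1 (-0.63 ± 0.13), CDK4 (-0.83 ± 0.16) and CDKN1A, which encodes the inhibitor p21 (-0.89 ± 0.13), fell, and RB1 (0.64 ± 0.16) and CDKN2C (0.68 ± 0.16) rose. All 5 lost their call without the block (limma, adjusted p from 0.0756 to 0.131), where the list of 18 had 0 calls, as it had without either A-485 replicate. With the same total per library 5 members were higher and 2 lower. Genes listed as p53 targets were lower in 11 of 34 and higher in 2, with a median of -0.26 that turned to 0.06 with the same total per library. GDF15, a secreted stress cytokine, was at 739 and 652 with A-485 and at 1913 and 1653 with DMSO (-1.36 ± 0.14), and CCNG2 rose by 0.84 ± 0.11. Of the p53 members, GDF15 and SESN2 are also in the ATF4 list. In the BCL2 family 5 of 17 were lower and 0 higher (1 and 2 with the same total per library), all 5 of them genes that promote cell death, among them PMAIP1, at 2.83 and 4.00 with A-485 and 9.61 and 10.7 with DMSO (-1.35 ± 0.17). Without the block 4 p53 targets and 1 BCL2 member were lower, and without either A-485 replicate 0 of these replication, mitosis, p53 or BCL2 members were.

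The genes of the drug's targets were not called. EP300 was at 15.4 and 13.5 scaled FPKM with A-485 and at 7.20 and 10.5 with DMSO (0.66 ± 0.19; limma, adjusted p = 0.0613), and CREBBP at 16.9 and 13.2 with A-485 and 6.28 and 12.2 with DMSO (0.71 ± 0.29; adjusted p = 0.136). Both A-485 libraries lay above both DMSO libraries in each gene, but the groups did not overlap in 52.6% of all genes tested either. In the replicate 2 pair the log2 change was only 0.33 for EP300 and 0.11 for CREBBP, below that in the replicate 1 pair. Of 28 histone acetyltransferase genes, 2 rose and 3 fell, shares near the 4.51% higher and 9.08% lower of all genes. KAT2B, which encodes PCAF, was at 6.38 and 5.67 with A-485 and 3.28 and 3.32 with DMSO (0.71 ± 0.16). HEXIM1, an inhibitor of the elongation kinase P-TEFb, was at 32.9 and 34.7 with A-485 and at 16.2 and 19.4 with DMSO (0.89 ± 0.12; adjusted p = 0.00984). It and SERPINI1, both known to rise under inhibitors of BET bromodomains, were the 2 members called of 31 in its list. Over all genes tested, 13.6% were called. BRD2 was not called (limma, adjusted p = 0.442). In SWI/SNF, the chromatin remodeler, 4 of 24 rose and 2 fell. SMARCA2, one of its alternative ATPases, was at 38.5 and 47.3 with A-485 and at 23.5 and 25.5 with DMSO (0.78 ± 0.14), and SMARCD2 fell by 0.79 ± 0.14. Mediator subunits gave 1 of 32 higher and 2 lower, Polycomb proteins 1 of 29 higher and 2 lower, with EZH2 at -0.58 ± 0.14, shares at or below the 4.51% higher and 9.08% lower of all genes. With the same total per library Mediator had 5 higher and 1 lower, Polycomb 6 higher and 0 lower, SWI/SNF 8 higher and 1 lower and the acetyltransferases 3 higher and 1 lower. Without the block, HEXIM1 and SERPINI1 kept their calls and 1 SWI/SNF gene was called. Neither HEXIM1 nor SERPINI1 was among the named genes called whichever of the 8 libraries was left out.

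Lists with more rises than falls were few, 8 of the 45, against 35 with more falls than rises. This split depended on the scaling. With the same total per library, 18 of the 31 list medians below 0 turned above it. Among all genes, 1630 were then higher and 490 lower. Genes of interferon signalling and antigen presentation gave 6 of 58 higher and 4 lower, where 4.51% of all genes were higher. IRF9, part of the interferon-activated transcription complex, was at 16.6 and 16.9 scaled FPKM with A-485 and at 5.82 and 6.43 with DMSO (1.31 ± 0.21; limma, adjusted p = 0.0153). IFIT1, which binds viral RNA, was at 11.3 and 8.17 with A-485 and 1.73 and 4.26 with DMSO (1.49 ± 0.31), while TAP2, a peptide transporter of antigen presentation, was at 12.3 and 12.5 with A-485 and 25.1 and 27.0 with DMSO (-1.02 ± 0.17). B2M, the shared light chain of class I molecules, was not called (0.22 ± 0.13, adjusted p = 0.278). SR proteins, hnRNPs and related splicing genes gave 4 of 50 higher and 1 lower, led by PNISR (1.42 ± 0.34). Numbered zinc finger genes, mostly DNA-binding repressors, gave 31 of 436 higher and 5 lower, with a median of 0.31. With the same total per library the counts were 20 higher and 2 lower for interferon genes, 16 and 0 for splicing genes and 72 and 1 for zinc finger genes. The zinc finger gene with the largest rise was ZNF780B, at 11.8 and 12.1 with A-485 and 1.94 and 3.72 with DMSO (1.79 ± 0.32). Immediate early genes and CREB targets were lower in 8 of 33 and higher in 0, where 9.08% of all genes were lower. Their median of -0.25 turned to 0.03 with the same total per library. ATF3 led them, and among the others was FOS, at 0.282 and 0.196 with A-485 and 1.39 and 3.93 with DMSO (-1.47 ± 0.31). Without the block 4 interferon genes, 0 splicing genes and 12 zinc finger genes were higher and 4 immediate early genes lower, and without either A-485 replicate 0 members of these lists were called.

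**Figure D4:**
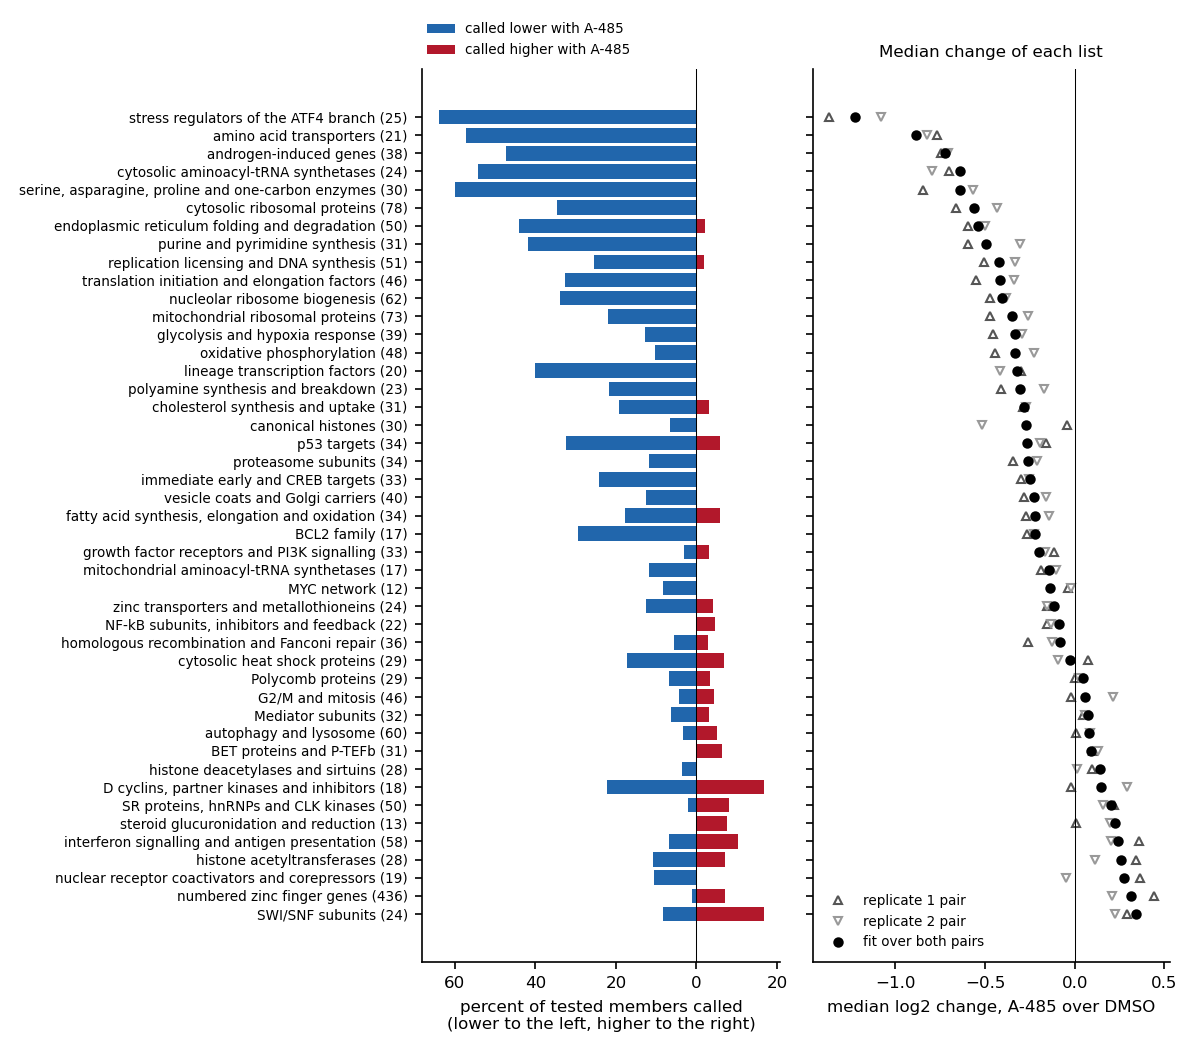
For 45 gene lists (tested members in brackets), the left panel gives the percent of members called lower (to the left) and higher (to the right) with A-485, and the right panel the median log2 change with A-485 over DMSO from the fit (filled) and in each pair of libraries (triangles). The stress regulators of the ATF4 branch have the lowest median (-1.22) and the SWI/SNF subunits the highest (0.34). With the same total per library, 18 of the 31 medians below 0 turn above it, while the 14 medians above 0 stay there.

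Genes were split into 5 equal groups by level, by transcript length and by GC content. Calls moved with the level, the transcript length and the GC content of genes. In the group with the highest level (above 51.8 scaled FPKM) 19.9% were lower and 1.39% higher, against 3.83% lower and 4.25% higher in the group with the lowest level. In the group with the shortest transcripts (up to 1300 bases) 14.1% were lower, and in the longest 4.59%. In the group with the lowest GC content (up to 42.3%) 2.78% were lower and 10.1% higher, with a median log2 change of 0.32. The GC content of the zinc finger list had a median of 45.2%, and the ribosomal protein transcripts a median length of 612 bases. After correction of each library for length and GC content, an alternative chosen after seeing the data, 1680 genes were called, 1075 lower and 605 higher, of which 1261 were among the 1613. The corrected counts were 16 lower for the ATF4 branch, 23 for androgen-induced genes, 17 for serine and one-carbon enzymes, 12 for transporters and 13 for cytosolic tRNA synthetases, and 34 zinc finger genes were higher. The part of RNA quality or library preparation in these gradients was not tested.

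**Figure D5:**
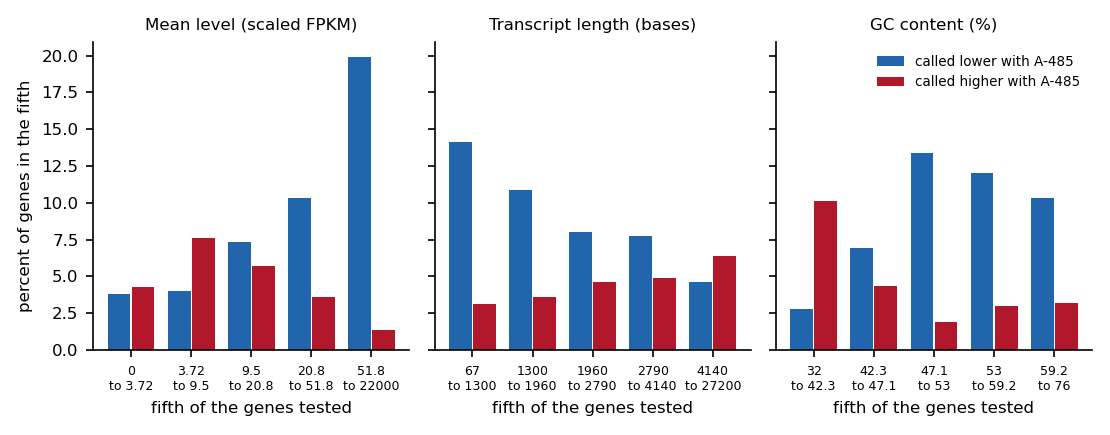
Percent of genes called lower and higher with A-485 in 5 equal groups of all genes tested, by mean level over the A-485 and DMSO libraries (left), transcript length (middle) and GC content (right). The share called lower goes up with level, to 19.9%, and is larger for short transcripts, and the share called higher is largest at low GC, at 10.1%.

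Single transcripts gave no call. Of 31838 transcripts tested in the same model, 0 passed (0.0%; limma) and 4347 had an unadjusted p under 0.05 (0 and 3335 without the block). Isoform usage within genes was not tested.

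A-485 was also set directly against I-CBP112, the bromodomain ligand, whose dose is likewise not given, so that matched doses cannot be assumed. The test called 309 of 11874 genes (2.6%), of which 253 (2.13%) were lower and 56 (0.472%) higher with A-485 than with I-CBP112. Without the block 102 were called, and without either A-485 replicate 0. Without I-CBP112 replicate 1 or 2 there were 67 or 31 calls, without DMSO replicate 1 or 2 there were 781 or 800, and without either library of the combination 92. SLC45A3 was at 18.9 and 14.3 scaled FPKM with A-485 and at 171 and 134 with I-CBP112 (-3.13, 95% interval -3.45 to -2.81; limma, adjusted p = 0.00114). CHAC1 was at 10.4 and 7.35 with A-485 and at 74.9 and 73.7 with I-CBP112 (-2.94, -3.41 to -2.48; adjusted p = 0.00248). MYC was at 61.4 and 51.8 with A-485 and at 158 and 157 with I-CBP112 (-1.47, -1.78 to -1.15; adjusted p = 0.00681). In these genes the A-485 libraries were the lower. TM4SF1 was at 10.2 and 14.4 with A-485 and at 0.578 and 1.32 with I-CBP112 (2.78, 2.30 to 3.26; limma, adjusted p = 0.00306). INSIG1 was at 19.8 and 15.4 with A-485 and 84.2 and 76.2 with I-CBP112 (-2.14, -2.45 to -1.82; limma, adjusted p = 0.00209). With DMSO, TM4SF1 was at 2.59 and 2.98 and INSIG1 at 40.4 and 32.0. The I-CBP112 libraries thus lay below DMSO for TM4SF1 and above DMSO for INSIG1. Against DMSO, I-CBP112 had 0 genes called. No difference was called for HEXIM1, at 32.9 and 34.7 with A-485 and 32.9 and 35.8 with I-CBP112 (-0.02, -0.31 to 0.26; adjusted p = 0.936), nor for TMPRSS2, at 75.7 and 65.8 with A-485 and 111 and 81.5 with I-CBP112 (-0.42, -0.73 to -0.12; adjusted p = 0.13). By list, 9 stress regulators of the ATF4 branch, 10 androgen-induced genes, 9 cholesterol genes, 8 serine and one-carbon enzymes and 7 cytosolic tRNA synthetases were lower with A-485 than with I-CBP112, with 0 higher in each. With A-485 against DMSO, 6 cholesterol genes were lower and 1 higher.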

How the data were processed

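RNA was measured in 8 libraries of LNCaP-FGC cells, from total RNA isolated with Trizol and treated with DNase, and prepared with NEB reagents (per the labels' protocols). The authors deposited FPKM per transcript, and Cufflinks, STAR, DESeq2, DESeq and the build hg19 (GRCh37) are listed, per the submitters' processing notes, without role or version. The values were read as FPKM because 78.3% were not whole and low values were multiples of a step per fragment (73.8% to 81.5% within 0.1 fragment). These depths are approximate. Transcripts were joined by Ensembl identifier to GENCODE 29, a GRCh38 annotation used for names, lengths and GC content (91.0% matched), and summed to genes. Columns of no sample numbered 0. Libraries were brought to a total of 1000000 and then scaled by a trimmed mean of log ratios (30% of ratios, 5% of levels). Genes at 1 scaled FPKM or more in at least 2 libraries were tested.

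limma 3.58.1 (R 4.3.3) fitted log2(scaled FPKM + 1), which understates changes of low genes, in all 8 libraries with 4 group means and the replicate number as a block (3 residual degrees of freedom), with trend and robust options and Benjamini-Hochberg adjustment over all genes. Same-numbered libraries share a prefix in the labels (12-17 or 2-22), and their deviations from group means correlated at 0.145 to 0.425 in all 6 pairs of groups, 0.399 for A-485 and DMSO. The block was part of the planned design. The fit was tested on simulated data. Members, lists and named genes were chosen with earlier results of these data known. Named were the 15 largest rises and falls called at a mean of at least 5 scaled FPKM, a panel, the 10 largest rises and falls in scaled FPKM, and up to 5 leading, opposing and central members per list. Other members named, mostly ones not called, were picked after their values were seen. Lists have no test, only counts and medians. Markers of other cell types were checked as levels. 2 lists of noncoding RNAs had 0 members in the table. Some genes chosen by the rule are not reported here.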

Additional observations from a re-analysis of the deposited data

How the results depend on the processing

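Counts of called genes depended on the libraries and on the model. For A-485 against DMSO (1613 genes) the block, which pairs same-numbered libraries, mattered: 526 were called with no replicate block. With no filter on low values 733 were called, with FPKM as deposited 740 (96 lower, 644 higher), and with voom on approximate fragments 4163. Leaving out 1 library gave between 8 and 2950 calls, with 574 and 584 once a library of the combination was left out. Such fits have fewer samples, and a lone library is assumed to vary like the other groups. Counts stayed within 1.5 times (1344 to 2120) with 8 other alternatives, among them the length and GC correction, chosen after seeing the data (1680), and the same total per library (2120).

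For A-485 against I-CBP112 (309 genes) the replicate block mattered too, with 102 called without it. The counts were 34 with no filter, 85 with FPKM as deposited, 186 with the same total per library, 1266 with voom, 498 with the length and GC correction, and 0 to 800 with 1 library left out. For single transcripts 6 were called with no filter, and 0 in the other settings, no replicate block and leave-one-out fits included.

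Of 238 named genes 236 were called, and 131 lost their call with no replicate block. With FPKM as deposited 3 genes called lower reversed in sign: BCL7C to 0.0066, MEAF6 to 0.035 and MAT2A to 0.0095. No other setting reversed a named gene. The cause of lost calls was not tested.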
